A study of Mus musculus with 16 samples.

Results

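The comparison described here is the effect of the Gao-Binge ethanol model on gene expression in the liver of wild-type mice. Its members were chosen by label. The 4 libraries titled as wild type and EDE, the ethanol group, were set against the 4 titled as wild type and CDM, the control diet group. These are 8 of the 16 libraries of the series. The genes tested were the 13256 of 27288 with a mean of at least 10 normalised reads over the 16 libraries. All mice were C57BL/6 and 8 to 10 weeks old, and RNA came from whole, snap-frozen liver. The wild-type mice served as the paired controls of a liver-specific DRP1 knockout, which supplies the other 8 libraries; Dnm1l encodes DRP1, the GTPase that divides mitochondria. The labels do not say whether the wild-type mice carried a floxed allele, nor their sex, the ethanol dose, the length of feeding or the hour of sampling. Nothing ties a library to a mouse of its own, so the p-values reflect only how far these samples spread, which may be technical.

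The Gao-Binge model joins a period of feeding on a liquid diet with ethanol to a single large gavage of ethanol, and is used to study early alcohol-associated liver injury with fat accumulation. Hepatocytes oxidise ethanol to acetaldehyde with alcohol dehydrogenases and the cytochrome P450 CYP2E1, and acetaldehyde to acetate with aldehyde dehydrogenases. The nuclear receptors CAR and PXR switch on drug-metabolising enzymes, SREBP transcription factors drive fat and cholesterol synthesis, PPARA drives fatty acid oxidation, and ATF4 drives the integrated stress response to amino acid shortage, endoplasmic reticulum stress or mitochondrial stress.

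Values are normalised reads, that is, reads per gene divided by 1 factor per library, and they are not divided by gene length. The 8 libraries held 12445462 to 13864862 reads, and Alb, the albumin gene of hepatocytes, was the most abundant gene in each. Summed over 18 hepatocyte markers the level was 1677758 to 2045299 normalised reads in ethanol libraries and 1814868 to 2143662 in control libraries. Of 11 pancreas markers 9 were at 0 in all 8 libraries. The first principal component of the 8 libraries held 60.9% of the variance and separated ethanol (24.2 to 58.3) from control (-46.5 to -42.6). The ethanol libraries did not form 1 group. On the second component, with 12.6% of the variance, ethanol libraries 1 and 2 lay at 30.1 and 18.7 and ethanol libraries 3 and 4 at -33.1 and -32.1. The labels give no batch that would divide them. Values for libraries 1 and 2 and for libraries 3 and 4, each pair against the same 4 control libraries, are therefore given beside results that rest on 1 pair. Control library 2 stood apart in macrophage transcripts and control library 3 in lipogenic and sterol transcripts, as given below.

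Ethanol changed the level of 5032 of the genes tested. After ethanol 2508 genes rose and 2524 fell (limma on log2(normalised reads + 1), Benjamini-Hochberg adjusted p under 0.05 over all genes tested). That is 38.0% of the genes tested, 18.9% upward and 19.0% downward, and these shares are the background for each list of genes below. A change of at least 2-fold was seen for 798 of the genes that rose and 833 of those that fell, and of at least 4-fold for 223 and 149. All 4 ethanol libraries lay above all 4 control libraries for 2345 genes and below them for 2303. The median log2 fold change over all genes tested was -0.0091. Leaving out each of the 8 libraries in turn gave 4251 to 5026 called genes, and 3525 genes were called in all 8 of these fits. With ethanol libraries 1 and 2 alone 5007 genes were called and with libraries 3 and 4 alone 3240, of which 2498 changed in the same direction in both and 7 in opposite directions.

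**Figure D1:**
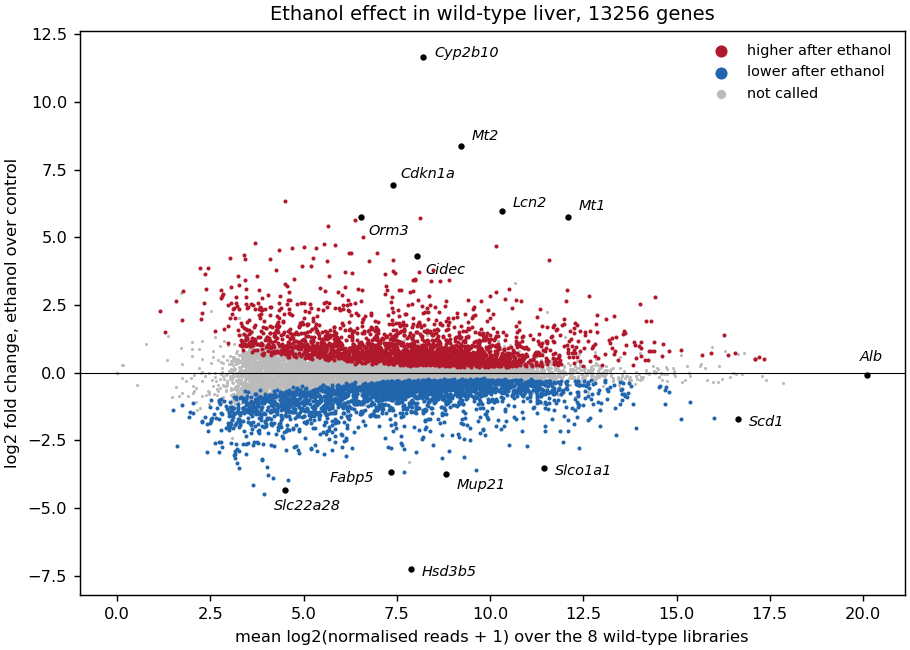
Log2 fold change of ethanol over control (vertical axis) against the mean log2(normalised reads + 1) over the 8 wild-type libraries (horizontal axis), 1 point per gene tested. The 2508 genes called higher are red, the 2524 called lower blue and the others grey; Cyp2b10 stands highest and Hsd3b5 lowest among the genes named.

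Among genes above the median level that were called in every fit leaving out 1 library and whose groups did not overlap, the 12 with the largest rises were Cyp2b10, Mt2, Lcn2, Mt1, Gstm3, Cidec, Igfbp1, Slc16a5, Cyp26b1, Pdk4, Plin4 and Trib3. Their log2 fold changes were between 3.42 and 11.67. The 12 with the largest falls were Hsd3b5, Mup21, Hsd3b2, Slco1a1, Hcn3, Keg1, Dbp, Col5a3, Acly, Srebf1, Nr0b2 and Depp1, between -7.26 and -2.67. They span drug metabolism, metal binding, lipid storage and stress on the rising side and steroid metabolism, lipid synthesis and the clock on the falling side, and are taken up with their lists below. Slc16a5, a monocarboxylate transporter, had 958, 879, 1779 and 1974 normalised reads in ethanol libraries and 108, 90.5, 174 and 44.6 in control libraries (log2 fold change 3.80 ± 0.37 SE, limma adjusted p = 1.69e-06). Keg1, a kidney-enriched acyltransferase-like gene, had 158, 96.7, 435 and 302 against 1938, 1997, 1346 and 2197 (log2 fold change -3.11 ± 0.35 SE, limma adjusted p = 7.07e-06). Hsd3b2, a steroid dehydrogenase, had 67.6, 36.1, 85.5 and 50.4 against 679, 737, 661 and 896 (log2 fold change -3.67 ± 0.29 SE, limma adjusted p = 2.47e-07), and the collagen gene Col5a3 72.5, 48.9, 159.8 and 58.7 against 817, 623, 405 and 434 (log2 fold change -2.83 ± 0.32 SE, limma adjusted p = 6.85e-06). In each of these genes the ethanol and control libraries were fully apart. Hcn3, a hyperpolarisation-activated channel gene, had 67.6, 53.6, 383 and 278 against 1096, 1053, 1310.1 and 1621 (log2 fold change -3.15 ± 0.46 SE, limma adjusted p = 7.35e-05).

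**Figure D2:**
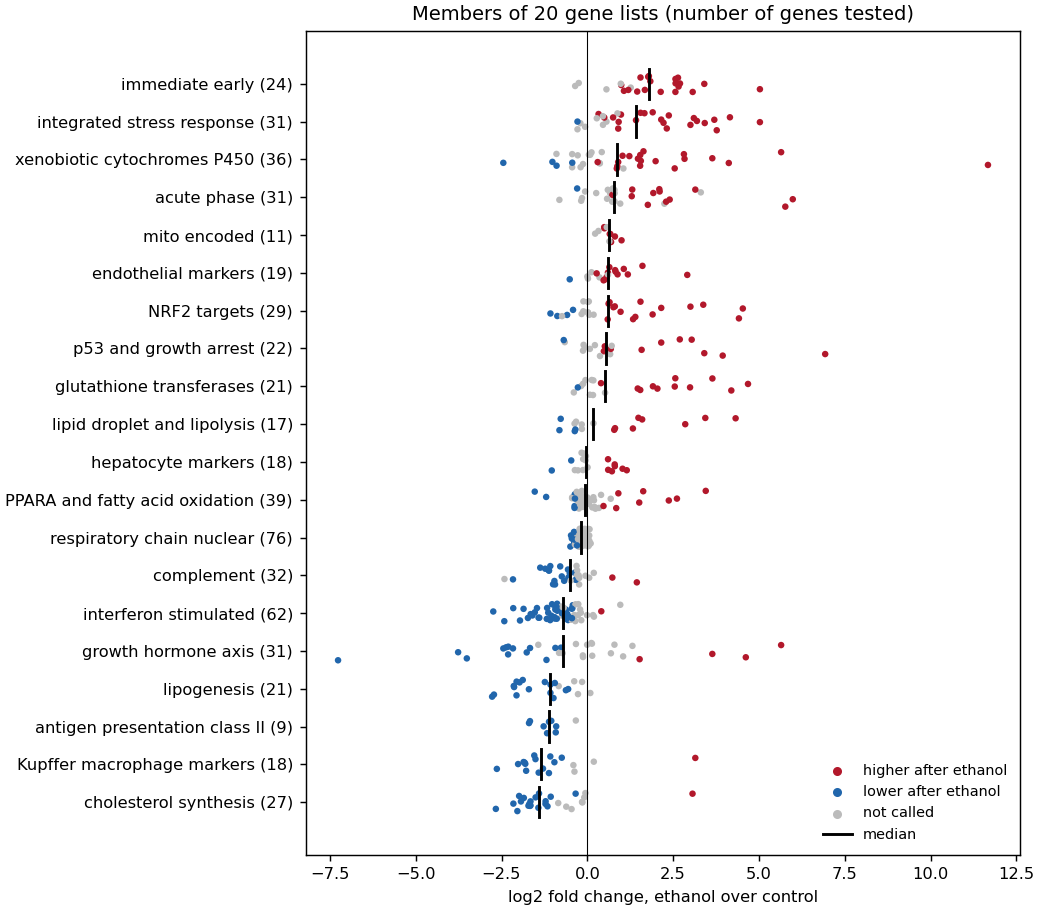
Log2 fold change of ethanol over control (horizontal axis) for the members tested of 20 gene lists, each point 1 gene and each black line the median of its list; red points rose, blue points fell and grey points were not called. Immediate early genes have the highest median, 1.78, and cholesterol synthesis genes the lowest, -1.41.

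Drug-metabolising cytochromes P450 rose as a group, led by Cyp2b10. This gene (ENSMUSG00000030483, chromosome 7, 25897620 to 25926624, plus strand in GRCm38), the classic target of CAR in mouse liver, had 18007, 19134, 15604 and 15001 normalised reads in ethanol libraries and 10.8, 1.99, 2.27 and 5.19 in control libraries. The 4 control libraries together held 20 reads of it and the 4 ethanol libraries 64245. The groups were far apart in every library, with a log2 fold change of 11.67 ± 0.42 SE (limma adjusted p = 1.89e-11), or 3258-fold. Of 36 xenobiotic P450 genes and partners tested 19 rose and 4 fell, with a median log2 fold change of 0.86 (0.78 with ethanol libraries 1 and 2 and 0.67 with 3 and 4). Cyp2a5, which hydroxylates coumarin and nicotine, had 15471, 22664, 18875 and 12750.2 against 2056, 2343, 2674 and 2553 (log2 fold change 2.83 ± 0.24 SE, limma adjusted p = 3.47e-07). Cyp2c29, an epoxygenase and drug hydroxylase, had 68760.4, 58918, 51608 and 54097 against 6675, 5641, 11629 and 10582 (log2 fold change 2.81 ± 0.29 SE, limma adjusted p = 3.41e-06). Por, the reductase that passes electrons to all microsomal P450 enzymes, had 21911, 21427, 13819 and 14300.0 against 3887, 3956, 4800.4 and 5064, a 3.97-fold rise (log2 fold change 1.99 ± 0.19 SE, limma adjusted p = 1.6e-06). Cyp1a2, a target of the aryl hydrocarbon receptor, rose 2.90-fold (limma adjusted p = 9.75e-06).

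The members of that list did not move alike. Cyp3a11, the main PXR target, had 21757, 26157, 15923 and 12132 normalised reads in ethanol libraries and 11247, 2932, 16327 and 11876 in control libraries, so that the groups overlapped. Its call (log2 fold change 1.03 ± 0.38 SE, limma adjusted p = 0.0447) was lost with ethanol libraries 3 and 4 alone (log2 0.64, adjusted p = 0.335) and with edgeR (log2 0.84, adjusted p = 0.0718). Limma also lost it without ethanol library 1, 2 or 3 (adjusted p = 0.101, 0.126 and 0.0517) and without control library 1 or 2 (adjusted p = 0.0508 and 0.129), and without control library 2 the log2 fold change was 0.49. Cyp2u1, which hydroxylates long-chain fatty acids, fell, with 67.6, 99.04, 214 and 159 against 771, 548, 599 and 822 (log2 fold change -2.45 ± 0.28 SE, limma adjusted p = 7.11e-06). Nr1i3, which encodes CAR itself, was not called, with 379.6, 461, 1056 and 496 against 689, 833, 666 and 819 (log2 -0.44, adjusted p = 0.179); without ethanol library 3, its highest, it was called lower (log2 -0.76, adjusted p = 0.00437). Cyp2b9 and Cyp2a4, both female-predominant in mice, were very uneven within the ethanol group and are given with the growth hormone axis. The Cyp2a, Cyp2b, Cyp2c, glutathione transferase, Mup, Saa and Orm families hold near-identical copies, so the division of their reads between members is uncertain.

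The enzymes that oxidise ethanol changed little by comparison. Adh1, the main alcohol dehydrogenase of liver, had 29466, 28085, 23162 and 26920.1 normalised reads in ethanol libraries and 24480.1, 23817, 32992 and 30797 in control libraries (log2 -0.05, limma adjusted p = 0.873). Aldh2, the mitochondrial aldehyde dehydrogenase, had 32392, 29117, 27999 and 25807 against 25878, 26744, 27812 and 24507 (log2 0.13, adjusted p = 0.417). Cyp2e1, whose protein is known to be stabilised by ethanol, had 57889, 101982, 88535 and 95763 against 80467, 100460.1, 93045 and 106129 (log2 -0.17, adjusted p = 0.545), with the groups overlapping in all 3 genes. Of the 14 genes of ethanol and acetate metabolism tested 2 rose and 4 fell. Adh4 had 413, 319, 382 and 455 against 1931, 1834, 1760.4 and 1755 (log2 fold change -2.22 ± 0.16 SE, limma adjusted p = 9.48e-08), and the cytosolic acetyl-CoA synthetase Acss2, an SREBP target, had 1548, 1764, 1226 and 1278 against 3183, 3860.1, 8814 and 2580.4 (log2 fold change -1.51 ± 0.31 SE, limma adjusted p = 0.00108). The mitochondrial Acss3 rose 1.998-fold (limma adjusted p = 0.00111). Cat, the peroxisomal catalase that can also oxidise ethanol, fell to 21922, 23953, 21601 and 17818 in ethanol libraries, against 34651, 27433, 35909.6 and 35448 in control libraries (log2 fold change -0.65 ± 0.14 SE, limma adjusted p = 0.00167).

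Glutathione transferases and part of the NRF2 programme rose with the P450 genes. Of 21 glutathione transferase genes tested 11 rose, with a median of 0.52. The 1 that fell was Gstz1, at 8403, 8042, 7639 and 7444 normalised reads in ethanol libraries and 9469, 7841, 10854 and 10273 in control libraries (log2 fold change -0.28 ± 0.11 SE, limma adjusted p = 0.0473), a call that was lost without ethanol library 4 (adjusted p = 0.103) and without any other single library but control library 2. Gstm3 had 6636, 8449.9, 4783 and 4296 normalised reads in ethanol libraries and 341, 221, 231 and 151 in control libraries (log2 fold change 4.68 ± 0.36 SE, limma adjusted p = 2.18e-07). Gstm1 had 44487, 50739, 29686 and 37625 against 8393, 6145, 6512 and 6446 (log2 fold change 2.55 ± 0.30 SE, limma adjusted p = 1.09e-05), and Gsta2 482, 755, 427 and 425 against 77.9, 23.9, 38.6 and 34.3 (log2 fold change 3.64 ± 0.35 SE, limma adjusted p = 1.31e-06). For Gstm3, Gstm1 and Gsta2 the lowest ethanol library was above the highest control library. Of 29 NRF2 targets 15 rose and 4 fell (median 0.59). Nqo1, a quinone reductase, had 209, 235, 279 and 211 against 71.98, 57.7, 66.9 and 50.9 (log2 fold change 1.90 ± 0.17 SE, limma adjusted p = 5.69e-07). Hmox1, the inducible haem oxygenase, had 356, 1324, 2367 and 2625 against 113, 149, 120.2 and 120.4 (log2 fold change 3.38 ± 0.46 SE, limma adjusted p = 4.31e-05), and was lowest in ethanol library 1. Srxn1, which repairs peroxiredoxins, had 1644, 2179, 3459 and 2211 against 502, 534, 549 and 473 (log2 fold change 2.15 ± 0.22 SE, limma adjusted p = 3.41e-06), and Cbr3, a carbonyl reductase, 87.2, 117, 173 and 49.5 against 1.97, 6.96, 3.40 and 2.08 (log2 fold change 4.53 ± 0.55 SE, limma adjusted p = 1.49e-05). Gclc, the catalytic subunit of glutathione synthesis, was not called, with 1419, 2194, 5137 and 1968 against 2838, 2737, 2246 and 2498 (log2 -0.12, adjusted p = 0.788), and its partner subunit Gclm fell (log2 -0.59, adjusted p = 0.00123). Of 17 other antioxidant genes 6 fell and 1 rose. Gpx1, the cytosolic glutathione peroxidase, fell (log2 -0.48, limma adjusted p = 0.00516), and the mitochondrial superoxide dismutase Sod2 was not called (log2 -0.01, adjusted p = 0.974).

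Conjugating enzymes and drug transporters moved in both directions. Of 26 conjugation genes 7 rose and 6 fell, shares of 26.9% and 23.1% that are near those over all genes tested (18.9% and 19.0%). Ugt1a9, a glucuronosyltransferase, had 931, 1142, 1672 and 1112 normalised reads in ethanol libraries and 298, 257, 228 and 241 in control libraries (log2 fold change 2.21 ± 0.18 SE, limma adjusted p = 2.79e-07). Sult1e1, the oestrogen sulfotransferase, had 463, 219, 56.7 and 291 against 0, 2.98, 9.07 and 0 (log2 fold change 6.34 ± 0.75 SE, limma adjusted p = 1.09e-05). Abcc4, which exports bile acids and conjugates across the basolateral membrane, had 263, 368, 375 and 368 against 15.8, 12.9, 15.9 and 15.6 (log2 fold change 4.42 ± 0.22 SE, limma adjusted p = 2.03e-09), and Abcc3, with a like role, 5527, 6694, 6441 and 5588 against 2373, 2103, 2716 and 2092 (log2 fold change 1.39 ± 0.12 SE, limma adjusted p = 4.92e-07). These uptake carriers fell: Slco1a1 had 1028, 1565, 2084 and 138 against 8138, 9392, 9328 and 11084 (log2 fold change -3.51 ± 0.58 SE, limma adjusted p = 0.000218), Slco1b2 8646, 9077, 10151 and 10574 against 17456, 16998, 16544 and 20823 (log2 fold change -0.90 ± 0.13 SE, limma adjusted p = 8.33e-05), and Slc22a28 4.91, 1.17, 5.57 and 6.42 against 126, 86.5, 66.9 and 144 (log2 fold change -4.36 ± 0.47 SE, limma adjusted p = 4.47e-06). Of 23 transporter genes tested 6 rose and 5 fell, shares of 26.1% and 21.7%, also near those over all genes.

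Metallothioneins, small cysteine-rich proteins that bind zinc and copper, were the second and the fourth of the largest rises above. Mt2 had 27809.8, 20111, 2153 and 11213 normalised reads in ethanol libraries and 12.8, 76.5, 32.9 and 29.1 in control libraries (log2 fold change 8.38 ± 0.83 SE, limma adjusted p = 2.06e-06), and Mt1 had 71273, 53975, 10010.0 and 26763 against 704, 1301, 447 and 307 (log2 fold change 5.74 ± 0.73 SE, limma adjusted p = 2.13e-05). Ethanol library 3 was the lowest for both and still above every control library. With libraries 1 and 2 the log2 fold changes were 9.51 and 6.70, and with libraries 3 and 4 they were 7.25 and 4.78. Metal-responsive transcription of these genes runs through short promoter elements bound by MTF1. The 250 bases before each start, shown because these 2 genes rose most in the list, are given 5′ to 3′ on the gene's strand from RefSeq (GRCm38.p6, Mt2 at chr8:94172368-94172617, plus strand; Mt1 at chr8:94178839-94179088, plus strand), with matches to TGCACNC or TGCGCNC on either strand in capitals.
Mt2: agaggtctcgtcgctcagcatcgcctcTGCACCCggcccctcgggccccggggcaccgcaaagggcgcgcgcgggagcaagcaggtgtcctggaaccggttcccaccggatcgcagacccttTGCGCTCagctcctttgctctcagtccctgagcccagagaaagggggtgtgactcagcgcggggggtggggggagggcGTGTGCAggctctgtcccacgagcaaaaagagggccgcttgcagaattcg
Mt1: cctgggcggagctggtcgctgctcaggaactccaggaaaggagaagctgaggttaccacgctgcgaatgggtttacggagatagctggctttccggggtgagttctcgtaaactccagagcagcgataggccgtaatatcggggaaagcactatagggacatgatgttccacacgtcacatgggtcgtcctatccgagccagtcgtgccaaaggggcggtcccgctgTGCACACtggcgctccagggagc
Within these 250 bases Mt2 held 3 matches, and Mt1 held 1. The bases on either side were not scanned, so these are not counts for the whole promoters. Of the 13 tested members of the metal and zinc list with a listed promoter 8 held a match, or 61.5%, against 33.6% of the 9756 tested genes and 23.8% of all 27025 genes listed. A match is only a string of letters, and binding was not measured. Of 16 members 5 rose and 2 fell. Mtf1 itself was among those that rose, with 275, 319, 291 and 265 against 205, 182, 248 and 227 (log2 fold change 0.42 ± 0.10 SE, limma adjusted p = 0.00448). Slc39a14, a zinc and iron importer, had 22537, 16419.8, 4375 and 6359.5 against 3229, 3429.7, 3893 and 3579 (log2 fold change 1.51 ± 0.44 SE, limma adjusted p = 0.0116), a call lost with ethanol libraries 3 and 4 alone (log2 0.58, adjusted p = 0.272). Hamp, which encodes the iron hormone hepcidin, ranged widely within the ethanol group, with 18636, 9008, 666 and 5075 against 5719, 2445, 9475 and 8098 (log2 -0.23, adjusted p = 0.831). Tfrc, the transferrin receptor, rose 1.88-fold (limma adjusted p = 0.00714).

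Targets of the integrated stress response rose in most members. Of 31 genes tested 22 rose and 1 fell, with a median log2 fold change of 1.42; 22 rose with ethanol libraries 1 and 2 and 20 with libraries 3 and 4. Atf4, its central transcription factor, had 2751, 2817, 1766 and 3523 normalised reads in ethanol libraries and 1229.5, 1324, 1579 and 1494 in control libraries (log2 fold change 0.91 ± 0.15 SE, limma adjusted p = 0.000255). Atf3, a factor it induces, had 502, 259.8, 190.4 and 3549.6 against 16.8, 10.9, 31.8 and 10.4 (log2 fold change 5.03 ± 0.63 SE, limma adjusted p = 2.02e-05). Trib3, a pseudokinase that damps ATF4 signalling, had 669.5, 480.1, 433 and 2836 against 126, 75.6, 37.4 and 79.9 (log2 fold change 3.42 ± 0.46 SE, limma adjusted p = 3.49e-05). Asns, asparagine synthetase, had 426, 275, 385 and 895 against 21.7, 60.6, 183 and 21.8 (log2 fold change 3.19 ± 0.62 SE, limma adjusted p = 0.000769). Psat1 of serine synthesis had 321, 239, 148 and 567 against 17.7, 42.7, 15.9 and 15.6 (log2 fold change 3.70 ± 0.36 SE, limma adjusted p = 1.59e-06), and Mthfd2, the mitochondrial one-carbon enzyme, 328, 197, 150.5 and 444 against 32.5, 34.8, 27.2 and 22.8 (log2 fold change 3.10 ± 0.26 SE, limma adjusted p = 3.98e-07). For these 6 genes every ethanol library was above every control library. Gdf15, a secreted stress hormone, had 604, 579, 289.8 and 1439.8 normalised reads in ethanol libraries and 109, 61.6, 18.1 and 31.1 in control libraries (log2 fold change 3.77 ± 0.56 SE, limma adjusted p = 8.52e-05). Fgf21, another secreted stress hormone, had 149, 219, 242 and 2497 against 56.2, 73.6, 88.5 and 71.6 (log2 fold change 2.37 ± 0.65 SE, limma adjusted p = 0.00889).

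Ethanol library 4 was the highest in the integrated stress response, at 2.32 above the control mean in average log2 level over the list, against 1.06 to 1.75 in the other ethanol libraries. Without it Atf3, Trib3 and Fgf21 were still called, with log2 fold changes of 4.13, 2.81 and 1.46 (limma adjusted p = 2.15e-06, 1.25e-05 and 0.0105). The promoter of Asns is shown as the member with a known ATF4 element near its start (chr6:7693210-7693459, minus strand, 250 bases before the start, gene strand, RefSeq GRCm38.p6), with the match to TGATGNAA on either strand in capitals.
Asns: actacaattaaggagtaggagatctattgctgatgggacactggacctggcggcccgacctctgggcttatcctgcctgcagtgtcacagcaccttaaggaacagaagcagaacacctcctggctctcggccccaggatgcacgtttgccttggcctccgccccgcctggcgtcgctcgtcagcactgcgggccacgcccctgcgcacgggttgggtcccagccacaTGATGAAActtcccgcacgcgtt
Of 27 tested members with a listed promoter 8 held this string, or 29.6%, against 2.55% of tested genes and 3.91% of all genes listed. All 8 (Atf3, Asns, Chac1, Slc7a11, Nupr1, Fgf21, Aars and Gars) were among the members that rose. The 8 are named for holding the string and not for their change. Trib3 and Ddit3, looked at in the same way as Asns, held no match.

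The unfolded protein response of the endoplasmic reticulum was less uniform. Of 30 genes tested 9 rose and 5 fell (median 0.18). With ethanol libraries 1 and 2 alone 13 rose and 3 fell, and with libraries 3 and 4 alone 3 rose and 4 fell. The number that fell was 2 without ethanol library 3 or control library 2 or 3, and 3 without ethanol library 4. Hspa5, the chaperone BiP, had 35714, 24237, 12217 and 19826 normalised reads in ethanol libraries and 7731, 9970.0, 14476 and 10957 in control libraries, with library 3 inside the control range. Its call (log2 fold change 1.02 ± 0.25 SE, limma adjusted p = 0.0045) was lost with libraries 3 and 4 alone (log2 0.57, adjusted p = 0.0941). Creld2, secreted under such stress, had 2459, 1678, 692 and 969.6 against 268, 311, 498 and 361 (log2 fold change 1.88 ± 0.32 SE, limma adjusted p = 0.000275), with no overlap. Pdia4, a disulfide isomerase, was not called (log2 0.09, adjusted p = 0.738). Of 19 cytosolic heat shock genes 7 rose and 2 fell. The co-chaperone Bag3 had 912, 886, 895 and 565 against 329, 245, 502 and 379.9 (log2 fold change 1.18 ± 0.20 SE, limma adjusted p = 0.000299). The inducible Hspa1b was not called, at 60.2, 156, 204 and 39.4 against 59.2, 61.6, 87.3 and 111 (log2 0.27, adjusted p = 0.648).

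Immediate early transcription factors, which respond to growth and stress signals within minutes, rose in 19 of 24 members with a median of 1.78. Jun, a subunit of AP-1, had 920.1, 1011, 855 and 2021 normalised reads in ethanol libraries and 413, 141, 197 and 90.3 in control libraries (log2 fold change 2.64 ± 0.40 SE, limma adjusted p = 0.000102). Myc, which drives growth, had 424, 171, 153 and 486 against 19.7, 52.7, 40.8 and 22.8 (log2 fold change 3.07 ± 0.36 SE, limma adjusted p = 1.05e-05), and Btg2, an antiproliferative factor, 4543, 2209, 297 and 1995 against 164, 178, 152 and 104 (log2 fold change 3.41 ± 0.55 SE, limma adjusted p = 0.000168). Egr1 had 5494, 3710.0, 489.5 and 2156 against 446, 179, 227 and 742, with library 3 inside the control range, and its call (log2 fold change 2.66 ± 0.63 SE, limma adjusted p = 0.00338) was lost with libraries 3 and 4 alone (log2 1.59, adjusted p = 0.0859), as was that of Fos (log2 1.79 with all libraries and 1.32 with these 2, adjusted p = 0.0022 and 0.0525). Of 22 genes of p53 signalling and growth arrest 11 rose and 1 fell. Cdkn1a, the cyclin-dependent kinase inhibitor p21, had 3567, 3769, 895 and 999 against 18.7, 7.95, 20.4 and 13.5, 122-fold (log2 fold change 6.93 ± 0.48 SE, limma adjusted p = 7.56e-08), and Gadd45b, a stress-induced signalling protein, 131, 271, 64.1 and 95.3 against 14.8, 5.96, 7.94 and 3.11 (log2 fold change 3.94 ± 0.49 SE, limma adjusted p = 1.75e-05). Mdm2, the p53 ligase and target, rose only 1.40-fold (limma adjusted p = 0.00253). Of 22 genes of polyamine and ribosome synthesis 9 rose and 3 fell. Odc1, the rate-limiting enzyme of polyamine synthesis, had 1026, 784, 1008 and 931 against 313, 301, 434 and 383 (log2 fold change 1.40 ± 0.14 SE, limma adjusted p = 2.53e-06). Among 28 cell cycle genes none was called higher and 10 fell, with Mcm5, a subunit of the replicative helicase, at 7.37, 8.16, 8.36 and 8.25 against 70.01, 26.8, 24.95 and 22.8 (log2 fold change -1.88 ± 0.43 SE, limma adjusted p = 0.00254), and Mki67 not called (log2 -0.10, adjusted p = 0.883).

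Clock genes moved in both directions. Arntl, which encodes the activator BMAL1, had 92.1, 175, 89.2 and 32.99 normalised reads in ethanol libraries and 20.7, 13.9, 19.3 and 9.34 in control libraries (log2 fold change 2.38 ± 0.46 SE, limma adjusted p = 0.000781). Dbp, an output gene that BMAL1 and CLOCK drive, had 115, 73.4, 225 and 471 against 1554, 1545, 924 and 1295 (log2 fold change -2.90 ± 0.44 SE, limma adjusted p = 9.62e-05). The groups did not overlap in either gene. Nr1d1, which encodes the repressor REV-ERB alpha, had 201, 270.3, 348 and 796 against 1144, 1190.0, 465 and 662, and its call (log2 fold change -1.20 ± 0.37 SE, limma adjusted p = 0.0163) was lost without ethanol library 1 or control library 1 or 2 (adjusted p = 0.062, 0.0558 and 0.0565) and with libraries 3 and 4 alone (log2 -0.61, adjusted p = 0.266). Per1 was not called (log2 0.40, adjusted p = 0.34). In all 7 of 24 clock genes rose and 9 fell. The hour at which each mouse was sampled is not given, so ethanol and time of day cannot be told apart for these genes. Of 15 glucocorticoid receptor genes and targets 5 rose and 2 fell. Fkbp5, a chaperone of that receptor and its target, had 5053, 4893, 3313 and 3819 against 355, 622, 593 and 466 (log2 fold change 3.08 ± 0.30 SE, limma adjusted p = 1.53e-06), and the kinase gene Sgk1 763, 748, 371 and 789 against 172, 132, 195 and 158 (log2 fold change 1.97 ± 0.32 SE, limma adjusted p = 0.000174). Tsc22d3, another target, was not called, with 773, 1528, 856 and 546 against 1033, 970.3, 1209 and 1153 (log2 -0.33, adjusted p = 0.57).

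**Figure D3:**
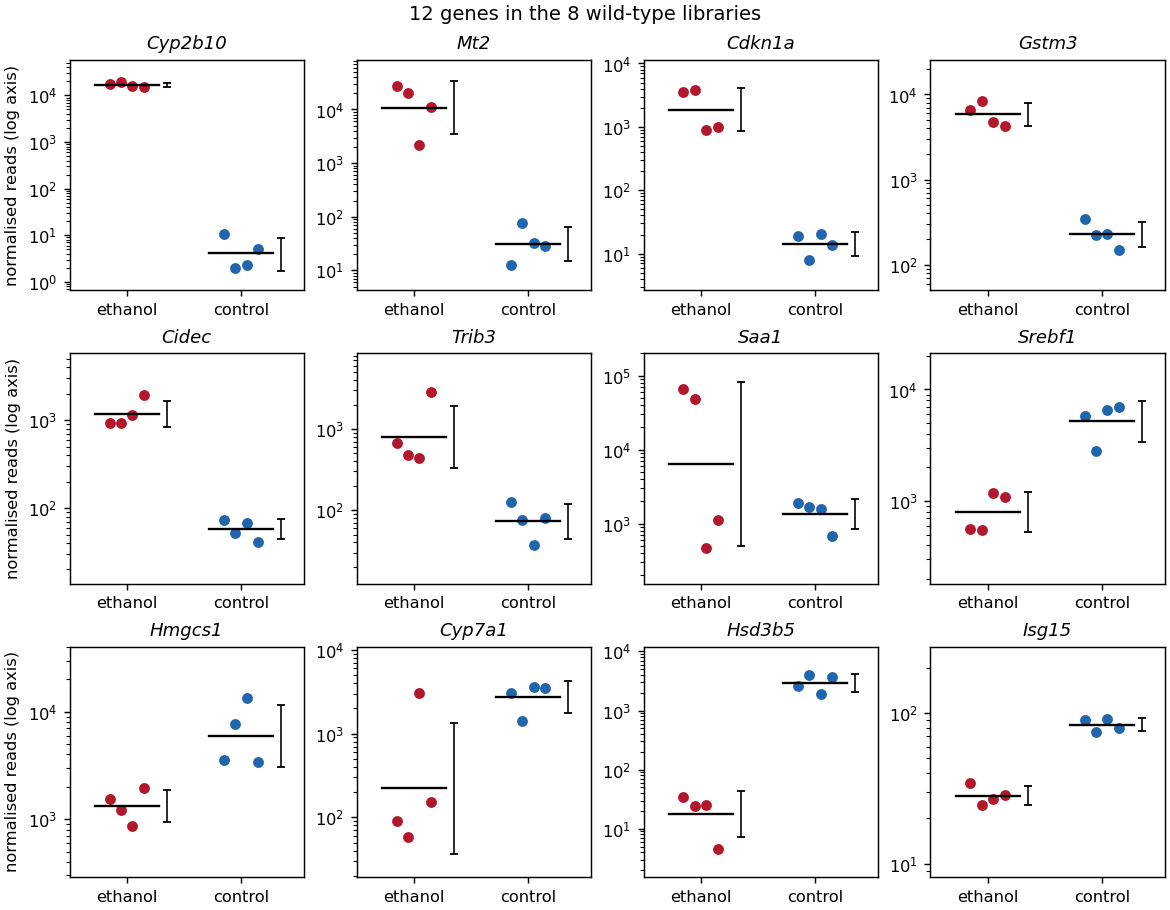
Normalised reads (log axis) of 12 genes in the 4 ethanol libraries (red) and the 4 control libraries (blue), numbered 1 to 4 from left to right in each group; the line is the mean and the bar 1 SD of log2(normalised reads + 1), both turned back to normalised reads. Cyp2b10 and Hsd3b5 are separated in every library, while Saa1 is high only in ethanol libraries 1 and 2 and Cyp7a1 keeps its control level in ethanol library 3.

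Genes of fat and cholesterol synthesis fell together. Of 21 lipogenic genes 16 fell, with a median log2 fold change of -1.07 (-1.38 with ethanol libraries 1 and 2 and -0.87 with 3 and 4). Srebf1, the transcription factor that drives them, had 561, 545, 1179.7 and 1077 normalised reads in ethanol libraries and 5795, 2788, 6506 and 7012 in control libraries (log2 fold change -2.72 ± 0.29 SE, limma adjusted p = 3.75e-06). Acly, which makes cytosolic acetyl-CoA, had 1247, 1049.8, 4095 and 3205 against 11294, 10567, 31006 and 10174 (log2 fold change -2.77 ± 0.40 SE, limma adjusted p = 6.3e-05), Fasn, fatty acid synthase, 7435, 6438, 7883 and 8592 against 30219.6, 19014, 58921 and 29076 (log2 fold change -2.06 ± 0.23 SE, limma adjusted p = 5.28e-06), and Scd1, the stearoyl-CoA desaturase, 74164, 66909.8, 64274 and 32318 against 192072, 150070.2, 282993 and 141727 (log2 fold change -1.70 ± 0.37 SE, limma adjusted p = 0.00182). In all 4 genes every ethanol library was below every control library. Control library 3 was the highest control for Acly, Fasn and Scd1. Without it the log2 fold changes of Acly, Fasn and Scd1 were -2.39, -1.76 and -1.50 (limma adjusted p = 0.000173, 1.48e-06 and 0.0076), so these calls remained.

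Of 27 genes of cholesterol synthesis and its control 19 fell and 1 rose (median -1.41). Hmgcs1, the first committed step, had 1527, 1220.0, 869 and 1940.2 normalised reads in ethanol libraries and 3557, 7700.4, 13396 and 3372 in control libraries (log2 fold change -2.15 ± 0.38 SE, limma adjusted p = 0.000355). The 2 genes for the proteins that hold SREBP in the endoplasmic reticulum moved apart. Insig1 had 569, 534, 459 and 811 against 3203, 3476, 5086 and 3249 (log2 fold change -2.67 ± 0.21 SE, limma adjusted p = 2.47e-07), and Insig2, the only member to rise, 11497, 20944, 9039 and 10612 against 1564, 1389.8, 1945 and 1115 (log2 fold change 3.06 ± 0.25 SE, limma adjusted p = 2.6e-07). Squalene epoxidase, Sqle, overlapped between groups, at 1104, 797, 285 and 1294 against 888, 2078, 3059 and 1111, and its call (log2 -1.07, adjusted p = 0.0444) was lost without ethanol library 2 or 3 (adjusted p = 0.0705 and 0.148) or control library 2 or 3 (adjusted p = 0.113 and 0.155), with a log2 fold change of -0.60 without ethanol library 3. The promoter of Hmgcs1, shown because its sterol response element is a textbook site of SREBP binding, lies at chr13:119690101-119690350, plus strand (250 bases before the start, gene strand, RefSeq GRCm38.p6), with the match to TCACNCCAC on either strand in capitals.
Hmgcs1: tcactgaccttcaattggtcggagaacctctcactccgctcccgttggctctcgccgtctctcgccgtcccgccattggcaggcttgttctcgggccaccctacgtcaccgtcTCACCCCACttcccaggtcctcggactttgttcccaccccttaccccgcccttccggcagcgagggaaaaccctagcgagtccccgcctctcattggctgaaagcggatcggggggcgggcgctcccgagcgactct
That string was rare: 1 of 19 members of the cholesterol list with a listed promoter held it and 1 of 18 of the lipogenic list, against 1.35% of tested genes. Insig1 and Fasn, looked at in the same way, held no match.

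Lipid droplet proteins rose while synthesis fell. Of 17 genes of droplets and lipolysis 8 rose and 4 fell. Cidec, which fuses droplets into larger ones, had 936, 917, 1141 and 1908 normalised reads in ethanol libraries and 73.9, 52.7, 68.1 and 41.5 in control libraries (log2 fold change 4.32 ± 0.33 SE, limma adjusted p = 1.77e-07). Plin4 had 1083, 1048, 759 and 572 against 127, 41.8, 62.4 and 103 (log2 fold change 3.44 ± 0.45 SE, limma adjusted p = 2.61e-05), Plin2, the main droplet coat protein of hepatocytes, 17454, 17857, 12094 and 21373 against 6492, 6887, 7809.6 and 5823 (log2 fold change 1.33 ± 0.17 SE, limma adjusted p = 2.02e-05), and Pnpla2, the triglyceride lipase, 3060.1, 3019, 2468 and 2805 against 1073, 1136, 824 and 1028 (log2 fold change 1.49 ± 0.15 SE, limma adjusted p = 3.01e-06). All 4 genes were higher in every ethanol library than in any control library. Fatty acid uptake and binding genes did not rise as a group, with 3 of 13 tested higher and 6 lower (23.1% and 46.2%). The fatty acid transporter Cd36 had 1479, 1078, 1491 and 1608 against 703, 485, 557 and 369.5 (log2 fold change 1.44 ± 0.20 SE, limma adjusted p = 4.53e-05). The binding proteins diverged: Fabp1, the abundant liver form, had 21547, 15703, 19011 and 23497 against 65564, 58219, 63918 and 73535 (log2 fold change -1.72 ± 0.21 SE, limma adjusted p = 1.32e-05), Fabp5 73.7, 15.1, 45.5 and 73.3 against 454, 731, 704 and 452 (log2 fold change -3.66 ± 0.45 SE, limma adjusted p = 1.44e-05), and Fabp4, typical of adipocytes, endothelium and macrophages, 385, 457, 226 and 279.5 against 76.9, 74.6, 73.7 and 65.4 (log2 fold change 2.15 ± 0.20 SE, limma adjusted p = 8.83e-07). In triglyceride assembly the acyltransferase genes Gpat3 and Gpam had log2 fold changes of 3.67 and -1.61 (limma adjusted p = 9.93e-08 and 0.000372), with Gpat3 at 591, 530.2, 465 and 1013 against 55.2, 68.6, 51.04 and 26.99. Vldlr, the VLDL receptor, had 130.2, 150.3, 112 and 181 against 35.5, 25.8, 17.01 and 29.1 (log2 fold change 2.40 ± 0.27 SE, limma adjusted p = 7.38e-06), Apoa4 5246, 5015, 9996 and 15064 against 1513, 1505, 3108 and 2338 (log2 fold change 1.98 ± 0.43 SE, limma adjusted p = 0.00184), and Apob was not called (log2 -0.05, adjusted p = 0.862).

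PPARA and its targets did not move as 1 group. Ppara had 369, 536, 845 and 539.8 normalised reads in ethanol libraries and 1487, 1802, 1600.5 and 1477 in control libraries (log2 fold change -1.53 ± 0.22 SE, limma adjusted p = 6.74e-05). Of 39 genes of this receptor and of fatty acid oxidation 8 rose and 6 fell (median -0.07), 8 and 6 being 20.5% and 15.4% of them, near the background shares. Its target Cyp4a10, a fatty acid omega-hydroxylase, had 4409, 5329.6, 6867 and 9458 against 1973, 3338, 1851 and 1371 (log2 fold change 1.63 ± 0.31 SE, limma adjusted p = 0.000717). Pdk4, the kinase that shuts off pyruvate dehydrogenase, had 1389, 2454, 255 and 576 against 53.2, 84.5, 159 and 46.7 (log2 fold change 3.45 ± 0.60 SE, limma adjusted p = 0.00032), and Acot2, a mitochondrial acyl-CoA thioesterase, 415, 263, 402 and 571 against 68.03, 50.7, 74.9 and 66.4 (log2 fold change 2.61 ± 0.24 SE, limma adjusted p = 8.44e-07). Cpt1a, which admits fatty acids to mitochondria, was not called, with 7249, 6286, 6758 and 6129 against 6668, 7250.1, 7571 and 7331 (log2 -0.13, adjusted p = 0.391).

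Cyp7a1, the rate-limiting enzyme of bile acid synthesis, was low in 3 of the 4 ethanol libraries. It had 90.9, 58.3, 3090.5 and 153 normalised reads in ethanol libraries and 3086, 1409, 3618 and 3500.1 in control libraries, with ethanol library 3 inside the control range. Limma called it (log2 fold change -3.59 ± 0.86 SE, limma adjusted p = 0.00359), but with edgeR and DESeq2 on the recovered reads it was not called (log2 -1.76 and -1.77, adjusted p = 0.137 and 0.136). Without library 3 the log2 fold change was -4.85, and with libraries 3 and 4 alone it was -1.98 and not called (adjusted p = 0.0945). Cyp8b1, which makes the precursor of cholic acid, had 1566, 1812, 4111 and 1214 against 3626, 3319, 6960.1 and 4052, with overlap (log2 fold change -1.15 ± 0.34 SE, limma adjusted p = 0.0129), and was not called with libraries 3 and 4 alone (log2 -0.94, adjusted p = 0.114). Nr0b2, the repressor SHP that bile acids induce, had 44.2, 161, 71.5 and 68.7 against 627, 507, 353 and 566 (log2 fold change -2.69 ± 0.60 SE, limma adjusted p = 0.00211), lower in every ethanol library. Slc10a1, the uptake carrier NTCP, fell to 9172, 8655, 11800.0 and 9556 in ethanol libraries, against 12818, 12537, 16975 and 16987 in control libraries (log2 fold change -0.59 ± 0.14 SE, limma adjusted p = 0.00344), though not with libraries 3 and 4 alone (log2 -0.47, adjusted p = 0.059). Abcb11, the canalicular bile salt pump, was not called (log2 -0.30, adjusted p = 0.143). Of 24 bile acid genes 2 rose, both of them the efflux pumps Abcc3 and Abcc4, and 8 fell.

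Retinoic acid hydroxylases rose. Cyp26a1, which degrades retinoic acid and is induced by it, had 676, 665, 1460.3 and 2262 normalised reads in ethanol libraries and 212, 81.5, 126 and 52.9 in control libraries (log2 fold change 3.40 ± 0.62 SE, limma adjusted p = 0.000484). Cyp26b1 had 774, 804, 1152 and 1346 against 86.8, 145, 71.5 and 34.3 (log2 fold change 3.71 ± 0.36 SE, limma adjusted p = 1.84e-06). In both genes ethanol libraries 3 and 4 were higher than 1 and 2, and all lay above the controls. Rbp4, the plasma retinol carrier, was not called (log2 -0.02, adjusted p = 0.938). Of 17 retinoid genes 6 rose and 4 fell.

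In glucose metabolism Igfbp1, a secreted IGF-binding protein that insulin represses, rose 17.8-fold, with 22759.6, 25096, 1397 and 34976 normalised reads in ethanol libraries and 381, 814, 1063 and 835 in control libraries (log2 fold change 4.16 ± 0.83 SE, limma adjusted p = 0.00102). Ethanol library 3 lay close above the controls. Pck1 of gluconeogenesis was not called (log2 -0.16, adjusted p = 0.821). Of 31 genes of glucose and insulin signalling 4 rose and 9 fell, shares of 12.9% and 29.0%. Several enzymes of methionine and amino acid metabolism rose. Among 28 methionine and one-carbon genes tested, though, 9 rose and 6 fell, shares of 32.1% and 21.4% (median 0.05). With ethanol libraries 1 and 2 alone 9 rose and 5 fell, and with libraries 3 and 4 alone 6 rose and 7 fell. Mat1a, which makes S-adenosylmethionine, had 172296, 164865, 105011 and 92816 against 41829, 48767, 58834 and 46954 (log2 fold change 1.40 ± 0.25 SE, limma adjusted p = 0.000387). Aass, the first enzyme of lysine degradation, had 23631, 32131, 12750.3 and 6111 against 3790.1, 3117, 3662 and 3795 (log2 fold change 2.12 ± 0.40 SE, limma adjusted p = 0.000616), and Tat, tyrosine aminotransferase, 72884, 68233, 14253 and 33909 against 13526, 8182, 11281 and 9783, a call (log2 fold change 1.91 ± 0.45 SE, limma adjusted p = 0.00332) lost with libraries 3 and 4 alone (log2 1.06, adjusted p = 0.0895). Ass1 of the urea cycle had 15291, 16887, 14715 and 9169 against 9970.3, 6789.8, 7421 and 7597 (log2 fold change 0.80 ± 0.17 SE, limma adjusted p = 0.00143). Of 33 urea cycle and amino acid genes 13 rose and 5 fell, with 15 higher with libraries 1 and 2 and 7 with 3 and 4.

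Zonation markers did not shift as 1 group. Glul, the glutamine synthetase of hepatocytes around the central vein, was not called, with 16759.8, 11787, 10360.2 and 12034 normalised reads in ethanol libraries and 11824, 17352, 15914 and 10539.7 in control libraries (log2 -0.12, limma adjusted p = 0.62). Axin2, a Wnt target of the same zone, had 55.3, 76.9, 236 and 196 against 95.6, 119, 124 and 102. With all libraries it was not called (log2 0.12, adjusted p = 0.831), with ethanol libraries 1 and 2 alone it fell (log2 -0.74, adjusted p = 0.0449) and with libraries 3 and 4 alone it rose (log2 0.97, adjusted p = 0.016). Of 24 pericentral genes 5 rose and 4 fell (5 and 10 with libraries 1 and 2, 7 and 3 with 3 and 4), and without ethanol library 3 the number that fell was 7. Cebpa, a transcription factor of hepatocyte identity, had 2278, 2464, 4319 and 2621 against 6298, 6269.9, 4953 and 5755 (log2 fold change -1.04 ± 0.15 SE, limma adjusted p = 8.44e-05), lower in every ethanol library. It was 1 of 2 hepatocyte identity genes that fell, of 24 tested, while 5 rose (8.33% and 20.8%). The median log2 fold change of that list was -6.1e-05. Alb itself was not called (log2 -0.11, adjusted p = 0.82).

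Several male-predominant genes of the growth hormone axis fell, and others were not called. Hsd3b5 (ENSMUSG00000038092, chromosome 3, 98618634 to 98630252, minus strand in GRCm38), a ketosteroid reductase, had 34.4, 24.5, 25.1 and 4.58 normalised reads in ethanol libraries and 2612, 3977, 1914 and 3657 in control libraries (log2 fold change -7.26 ± 0.54 SE, limma adjusted p = 1.58e-07), the largest fall among the genes named. Mup21, a major urinary protein, had 89.7, 299, 285 and 26.6 against 1369.5, 2470.4, 1716 and 1259 (log2 fold change -3.76 ± 0.55 SE, limma adjusted p = 6.95e-05), and all Mup genes together took 0.233% to 0.536% of reads in ethanol libraries and 1.10% to 1.51% in control libraries. Slco1a1, given above, belongs to the same male-predominant set. C6, a terminal complement component, had 1197, 1011, 797 and 599 against 3589, 4354, 4061 and 3709 (log2 fold change -2.17 ± 0.23 SE, limma adjusted p = 3.48e-06). Elovl3, a male-predominant fatty acid elongase, was not called, with 714, 623, 810.0 and 276 against 760.2, 585, 644 and 499 (log2 -0.13, adjusted p = 0.795). Ghr, the growth hormone receptor, had 4229.6, 3851, 4236 and 3134 against 8324, 8561, 8451 and 9745 (log2 fold change -1.19 ± 0.12 SE, limma adjusted p = 3.21e-06). Igf1, its main endocrine output, was not called, with 14205, 10106, 8601 and 8246 against 8879, 9256, 9294 and 9187 (log2 0.13, adjusted p = 0.476). Of 31 genes tested 13 fell and 4 rose (median -0.72).

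Several female-predominant genes, singled out after their values were seen, were far higher in ethanol library 4 than in the rest. Cyp2b9 had 146, 279.6, 454 and 6139.6 normalised reads in ethanol libraries and 3.94, 56.7, 7.94 and 6.23 in control libraries (log2 5.64, limma adjusted p = 0.00344; 4.51 without ethanol library 4). Cyp2a4 had 60.2, 83.9, 202 and 1728 against 1.97, 32.8, 37.4 and 4.15 (log2 4.12, adjusted p = 0.00794; 3.10 without ethanol library 4), and was not called with libraries 1 and 2 alone (log2 2.60, adjusted p = 0.0887). Cux2, a female-predominant repressor, had 178, 26.8, 100.3 and 532 against 2.96, 6.96, 2.27 and 6.23 (log2 fold change 4.62 ± 0.79 SE, limma adjusted p = 0.000276). Cyp2b13, a near copy of Cyp2b9, was called as well, with 8.60, 9.32, 2.79 and 272 against 0.986, 0, 1.13 and 0 (log2 3.64, adjusted p = 0.00794; 2.33 without ethanol library 4). Hao2, another female-predominant member of the growth hormone list, was below the level tested and had 0 to 1.23 normalised reads in ethanol libraries and 0 to 3.40 in control libraries. Library 4 was also the lowest ethanol library for Hsd3b5, Slco1a1 and Mup21. Bcl6, a male-predominant repressor, was not called, at 154, 288, 141 and 147 against 480.2, 226, 879 and 512 (log2 -1.43, adjusted p = 0.0728); without control library 2, its lowest control, it was called lower (log2 -1.78, adjusted p = 0.0409).

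Acute phase genes, secreted by hepatocytes under cytokines, divided the ethanol libraries. Saa1, serum amyloid A, had 66698, 49001, 462 and 1104 normalised reads in ethanol libraries and 1869, 1654, 1583 and 675 in control libraries, so that libraries 1 and 2 were far above the controls and libraries 3 and 4 within or below their range. With all libraries Saa1 was not called (log2 2.24, limma adjusted p = 0.229), while with libraries 1 and 2 alone it was (log2 5.40, adjusted p = 0.00173), as it was without library 3 (log2 3.51, adjusted p = 0.0474) and with edgeR on all reads (log2 4.33, adjusted p = 0.0306). Libraries 1 and 2 were also far above the controls for haptoglobin, Hp, with 168606, 173697, 37923 and 54872 against 35854, 51792, 52165 and 44124, where library 4 lay just above the highest control and library 3 within their range. For the fibrinogen chain gene Fgb, with 289146, 246835, 45629 and 85721 against 71929.9, 102252, 76607 and 72241, library 3 was below the controls and library 4 within their range. With all libraries neither was called (log2 0.96 and 0.69, adjusted p = 0.0812 and 0.279). Both were called without library 3 (log2 1.37 and 1.20, adjusted p = 0.00927 and 0.0364), and Hp also without library 4 (log2 1.19, adjusted p = 0.0452). Of 31 acute phase genes 12 rose with all libraries, 26 with libraries 1 and 2 (median 1.77) and 6 with libraries 3 and 4 (median 0.08). With all libraries 1 fell, and with libraries 3 and 4 alone 2 fell. The count that rose was 7 without ethanol library 1, 7 without library 2 and 23 without library 3. Some members were above the controls in every ethanol library: Lcn2, lipocalin 2, had 35294, 27073, 1136 and 9839 against 117, 375, 214 and 68.5 (log2 fold change 5.98 ± 0.95 SE, limma adjusted p = 0.000148), and Orm3, an orosomucoid gene, 846, 1379.6, 268 and 711 against 11.8, 9.94, 13.6 and 11.4 (log2 fold change 5.77 ± 0.36 SE, limma adjusted p = 3.24e-08). Cd14, the lipopolysaccharide co-receptor that hepatocytes and macrophages express, had 168, 234, 66.9 and 104 against 8.87, 39.8, 9.07 and 10.4 (log2 fold change 3.15 ± 0.41 SE, limma adjusted p = 2.52e-05).

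**Figure D4:**
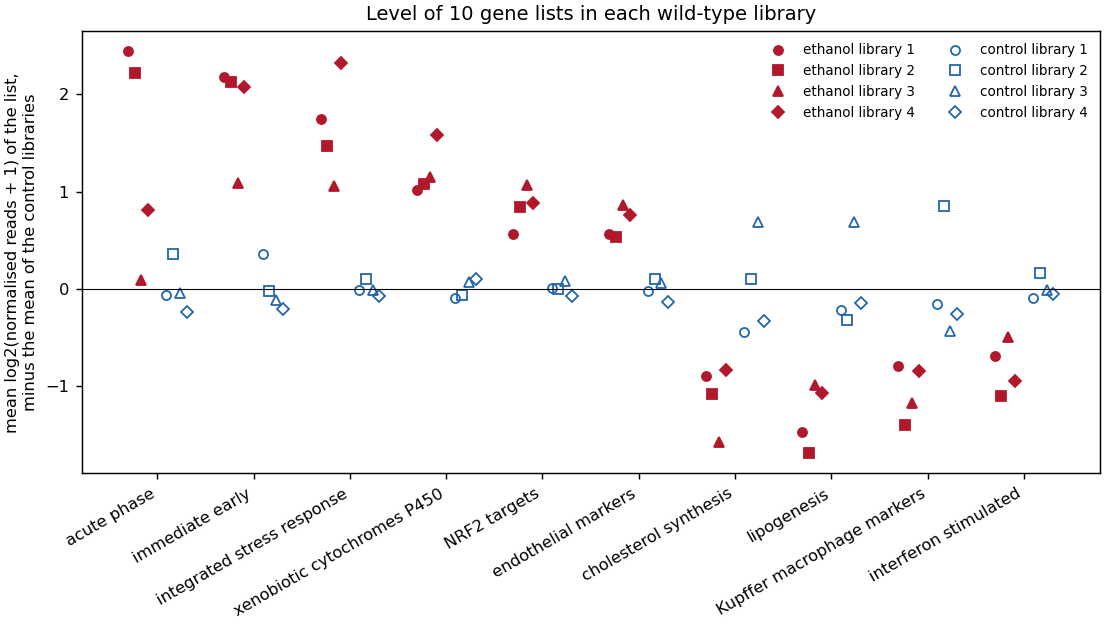
Mean log2(normalised reads + 1) of the members of 10 gene lists in each wild-type library, less the mean of the 4 control libraries (vertical axis); ethanol libraries are filled red and control libraries open blue, with 1 marker shape per library number. Acute phase genes lie at 2.44 and 2.22 in ethanol libraries 1 and 2 and at 0.0934 and 0.812 in libraries 3 and 4, while the other lists keep all ethanol libraries on 1 side of all control libraries.

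Complement genes fell. Of 32 tested 18 fell and 2 rose (median -0.50). C9, the pore-forming component, had 3317, 3231, 3075 and 2734 normalised reads in ethanol libraries and 8139, 8569, 6519.9 and 8906 in control libraries (log2 fold change -1.37 ± 0.11 SE, limma adjusted p = 2.88e-07), and C2 502, 452, 377 and 411 against 573, 693, 649 and 635 (log2 fold change -0.55 ± 0.10 SE, limma adjusted p = 0.00062). C3, the central component and an acute phase protein, had 170574, 148079, 89984 and 109590.3 against 65073, 115102, 67957 and 64936; its rise (log2 0.73, adjusted p = 0.0258) was lost with libraries 3 and 4 alone (log2 0.39, adjusted p = 0.308) and without ethanol library 1 or 2 (adjusted p = 0.0873 and 0.0714) or control library 1, 3 or 4 (adjusted p = 0.0722, 0.064 and 0.0735). The members C1qa, C1qb and C1qc are made by macrophages and fell with the macrophage markers below, while C9, C6 and C8a are hepatocyte products. Of 29 coagulation genes 9 fell and 2 rose, 31.0% and 6.90%. With ethanol libraries 1 and 2 alone 10 fell and 9 rose, with libraries 3 and 4 alone 7 and 2, and without ethanol library 3 the number that rose was 7. Prothrombin, F2, was not called (log2 -0.04, adjusted p = 0.798).

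Interferon-stimulated genes fell after ethanol. Of 62 tested 44 fell and 1 rose. The 44 are 71.0% against a background of 19.0%, and the median log2 fold change was -0.71. The counts that fell were 44 with ethanol libraries 1 and 2 and 36 with libraries 3 and 4. Isg15 (ENSMUSG00000035692, chromosome 4, 156199424 to 156200818, minus strand in GRCm38), whose product is conjugated to other proteins like ubiquitin, had 34.4, 24.5, 26.9 and 28.4 normalised reads in ethanol libraries and 89.7, 74.6, 91.9 and 79.9 in control libraries (log2 fold change -1.53 ± 0.18 SE, limma adjusted p = 8.69e-06). Irf7, the factor that amplifies interferon production, had 155, 94.4, 122 and 98.98 against 255, 615, 349 and 278 (log2 fold change -1.60 ± 0.23 SE, limma adjusted p = 5.22e-05), and Ifi44 6.14, 6.99, 17.6 and 6.42 against 36.5, 47.7, 65.8 and 51.9 (log2 fold change -2.42 ± 0.27 SE, limma adjusted p = 7.08e-06). Ifit1, which binds foreign RNA, had 49.1, 23.3, 88.2 and 40.3 against 85.8, 77.5, 119 and 144, with ethanol library 3 within the control range, and its call (log2 fold change -1.18 ± 0.32 SE, limma adjusted p = 0.00798) was lost with libraries 3 and 4 alone (log2 -0.78, adjusted p = 0.096). Gbp2 was not called (log2 -0.39, adjusted p = 0.124). The promoters of Isg15 and Ifit1 are shown as members with an interferon-stimulated response element close to the start (chr4:156200819-156201068, minus strand and chr19:34640639-34640888, plus strand, 250 bases before the start, gene strand, RefSeq GRCm38.p6), with each pair of GAAA strings that stand NN apart on the same strand, either strand, in capitals.
Isg15: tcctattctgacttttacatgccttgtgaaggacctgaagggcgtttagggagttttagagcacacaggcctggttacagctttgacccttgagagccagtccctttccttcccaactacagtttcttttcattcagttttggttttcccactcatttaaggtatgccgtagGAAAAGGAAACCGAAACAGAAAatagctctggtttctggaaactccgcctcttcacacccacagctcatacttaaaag
Ifit1: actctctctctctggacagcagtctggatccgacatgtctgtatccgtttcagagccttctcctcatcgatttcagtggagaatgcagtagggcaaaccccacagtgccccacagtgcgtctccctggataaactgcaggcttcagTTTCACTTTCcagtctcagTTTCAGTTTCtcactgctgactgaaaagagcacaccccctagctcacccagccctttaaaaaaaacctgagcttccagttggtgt
Isg15 held 3 matches that overlap each other and Ifit1 held 2. Irf7, looked at in the same way, held no match. Of 46 tested members with a listed promoter 19 held a match, or 41.3%, against 3.34% of tested genes, and 12 of the 33 such members that fell held one.

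Antigen presentation genes fell with them. All 8 class II genes called were lower, of 9 tested (median -1.12), with H2-Aa at 114, 68.7, 70.6 and 82.5 normalised reads in ethanol libraries and 165, 275, 202 and 175 in control libraries (log2 fold change -1.27 ± 0.25 SE, limma adjusted p = 0.000869) and Ciita, the class II transactivator, at 2.46, 2.33, 3.72 and 1.83 against 7.89, 8.95, 11.3 and 13.5 (log2 fold change -1.67 ± 0.40 SE, limma adjusted p = 0.00365). Of 21 class I genes 9 fell. The immunoproteasome subunit gene Psmb8 had 169.5, 158, 148 and 169 against 266, 327, 303 and 289.6 (log2 fold change -0.87 ± 0.11 SE, limma adjusted p = 2.76e-05). B2m and the heavy chains H2-K1 and H2-D1 were not called, with log2 fold changes of -0.24, -0.11 and 0.26 (limma adjusted p = 0.121, 0.506 and 0.0902). H2-D1 was called higher without ethanol library 3 (log2 0.36, adjusted p = 0.0219).

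Markers of resident macrophages fell in the same libraries. Of 18 Kupffer cell and macrophage markers tested 14 fell and 1, Cd14, rose (median -1.36). The summed level of the 19 listed was 1742 to 2405 normalised reads in ethanol libraries and 3709 to 8136 in control libraries, the highest in control library 2. Each listed marker had reads in at least 1 of the 8 libraries. Clec4f, a lectin found only on Kupffer cells in mice, had 334, 239, 227 and 311 against 670.5, 1226, 465 and 534 (log2 fold change -1.29 ± 0.23 SE, limma adjusted p = 0.000345). Vsig4, a complement receptor, had 55.3, 31.5, 64.1 and 59.6 against 147, 320.1, 127 and 165 (log2 fold change -1.78 ± 0.27 SE, limma adjusted p = 9.29e-05), Cd5l 177, 115, 125 and 211 against 599, 1192, 379 and 546 (log2 fold change -2.02 ± 0.28 SE, limma adjusted p = 4.85e-05), and Csf1r, the receptor that macrophages need to survive, 113, 80.4, 115 and 150.3 against 304, 681, 208 and 247 (log2 fold change -1.51 ± 0.28 SE, limma adjusted p = 0.000485). Without control library 2 the log2 fold changes of Clec4f, Vsig4, Cd5l and Csf1r were -1.004, -1.50, -1.70 and -1.15 (limma adjusted p = 0.000321, 0.000211, 8.53e-05 and 0.000386). Cx3cr1, of monocytes and capsular macrophages, had 2.46, 1.17, 0.929 and 1.83 against 17.7, 17.9, 10.2 and 12.5 (log2 fold change -2.59 ± 0.29 SE, limma adjusted p = 6.23e-06). These values rest on 6 reads in the ethanol libraries and 57 in the control libraries. Among 11 markers of monocyte-derived cells tested 4 fell, Cx3cr1 included, and the others were not called. The summed level of the 15 listed overlapped, at 20182 to 43790 in ethanol libraries and 23218 to 29331 in control libraries. Such a sum rests on the most abundant members and says little about the others. In average log2 level of the 11 tested, less the control mean, the ethanol libraries were at -0.32, -0.64, -0.87 and -1.05. The control libraries were at -0.40, 0.66, 0.098 and -0.36. In whole liver fewer cells of a type and less RNA per cell cannot be told apart, and the part of the macrophage transcripts in the fall of interferon, class II and complement genes was not tested.

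Other blood and immune cells were near the limit of these libraries. Of 16 neutrophil markers 4 could be tested. The summed level of all 16 was 169 to 330.5 in ethanol libraries and 159 to 393 in control libraries, and rests on the most abundant of them. In average log2 level of the 4 tested, less the control mean, the ethanol libraries were at 1.31, 0.853, -0.226 and 0.195. The control libraries were at -0.0320, 0.707, -0.191 and -0.483. S100a8, an abundant neutrophil protein, had 30.7, 24.5, 4.64 and 10.998 against 7.89, 6.96, 3.40 and 6.23; the call was absent with all libraries (log2 1.15, adjusted p = 0.12) and present without ethanol library 3 (log2 1.63, adjusted p = 0.0251). Chemokines differed between ethanol libraries: Cxcl1, which draws neutrophils, had 2378, 2424, 106 and 115 against 254, 319, 151 and 119, high in libraries 1 and 2 alone (log2 3.61, adjusted p = 0.00101, against log2 1.39, adjusted p = 0.264 with all 4). Cxcl10, an interferon-induced chemokine, had 15.97, 9.32, 39.9 and 48.6 against 14.8, 17.9, 9.07 and 7.27, high in libraries 3 and 4 (log2 1.84, adjusted p = 0.000555, against log2 0.96, adjusted p = 0.0644 with all 4). It was also called without ethanol library 1 (log2 1.13, adjusted p = 0.0491), without control library 2 (log2 1.16, adjusted p = 0.0438) and without ethanol library 2 (log2 1.37, adjusted p = 0.00613). Il1b was not called (log2 0.04, adjusted p = 0.955). All 20 T and NK cell markers summed to 36.1 to 51.6 in ethanol libraries and 68.1 to 138 in control libraries, and 4 of them could be tested.

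Endothelial markers rose in the same samples in which macrophage markers fell. Of 19 tested 13 rose and 1 fell (median 0.60). The summed level of the 19 was 5511 to 6763 in ethanol libraries and 3708 to 4372 in control libraries. Lyve1, the hyaluronan receptor of liver sinusoids, had 339, 675, 440.3 and 254 normalised reads in ethanol libraries and 26.6, 54.7, 79.4 and 64.4 in control libraries (log2 fold change 2.91 ± 0.33 SE, limma adjusted p = 8.44e-06), and Pecam1, the junction protein CD31, 251, 301, 287 and 279 against 94.7, 156, 139.5 and 109 (log2 fold change 1.18 ± 0.15 SE, limma adjusted p = 2.19e-05). Of 17 stellate cell and fibroblast markers 7 rose and 1 fell. Their summed level was 7777 to 9683 normalised reads in ethanol libraries and 9609.8 to 10243 in control libraries. Among 29 matrix and fibrosis genes 10 rose and 2 fell. Col4a1, a basement membrane collagen, had 770.2, 729, 480.2 and 719 against 210.0, 264, 226 and 174 (log2 fold change 1.61 ± 0.18 SE, limma adjusted p = 8e-06), while the fibrillar collagen gene Col3a1 fell to 99.5, 111, 78.03 and 134 in ethanol libraries, against 194, 253, 307 and 358 in control libraries (log2 fold change -1.38 ± 0.29 SE, limma adjusted p = 0.00133), and Col1a1 was not called (log2 -0.32, adjusted p = 0.291).

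Transcripts of mitochondrial DNA took a larger share of reads after ethanol. Reads over its protein-coding genes made up 5.10%, 5.08%, 5.28% and 4.57% of the ethanol libraries and 3.82%, 3.51%, 3.85% and 3.80% of the control libraries. The mean was 5.01 ± 0.306% against 3.74 ± 0.155% (SD, n = 4 each), a difference of 1.26 points with p = 0.0286 in an exact two-sided permutation test, the smallest p that 4 against 4 allows. Of 11 such transcripts tested 7 rose (median 0.64). mt-Nd1, a subunit of complex I, had 126601, 116064, 99492 and 90660.2 normalised reads against 68296, 61689, 75510.3 and 68268 (log2 fold change 0.65 ± 0.17 SE, limma adjusted p = 0.00705). With libraries 1 and 2 alone 7 of the 11 rose (median 0.83). With libraries 3 and 4 alone none of the 11 was called, mt-Nd1 included (log2 0.48, adjusted p = 0.097), and the median was 0.39. Of these transcripts 4 were called without ethanol library 1, without ethanol library 2, without control library 1 or without control library 2. Of 76 nuclear genes of the respiratory chain 10 fell, 13.2% against a background of 19.0%, and their median log2 fold change was -0.18. The number lower was 5, 4, 3 and 4 without ethanol library 3, ethanol library 4, control library 3 and control library 4, and 1 with ethanol libraries 1 and 2 alone. Of 77 mitochondrial ribosomal protein genes 17 fell and 3 rose, with 10 lower with libraries 1 and 2 and 10 with 3 and 4.

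Of 28 genes of mitochondrial dynamics and quality control 3 rose and 5 fell, 10.7% and 17.9% against backgrounds of 18.9% and 19.0%. The number that rose was 1 without ethanol library 1 or 2 or any 1 control library. The number that fell was 3 without ethanol library 1, 2 or 4 or control library 3, 2 without control library 1 and 1 without ethanol library 3 or control library 4. Mief2, an adaptor that recruits DRP1 to mitochondria, had 178, 203, 229 and 167 normalised reads in ethanol libraries and 288, 236, 271 and 262 in control libraries (log2 fold change -0.45 ± 0.11 SE, limma adjusted p = 0.00527), with no overlap. Dnm1l had 778, 771, 725 and 697 normalised reads in ethanol libraries and 707, 581, 686 and 677 in control libraries (log2 fold change 0.17 ± 0.11 SE, limma adjusted p = 0.229). Neither Dnm1l nor the fusion genes Mfn2 and Opa1 were called. Mfn2 and Opa1 had log2 fold changes of -0.03 ± 0.11 and -0.12 ± 0.09 SE (limma adjusted p = 0.878 and 0.306), and the mitochondrial transcription factor gene Tfam -0.14 ± 0.08 SE (adjusted p = 0.184). Of 44 genes of autophagy and lysosomes 11 rose and 4 fell, with 7 higher without ethanol library 2. Sqstm1, the autophagy receptor p62 and an NRF2 target, had 6944, 8240.2, 10792 and 14253 against 5262, 4490.4, 5757 and 4419.7 (log2 fold change 0.97 ± 0.19 SE, limma adjusted p = 0.000888), while Ulk1, the initiating kinase, and Pink1, which marks damaged mitochondria, were not called (log2 0.01 and -0.10, adjusted p = 0.984 and 0.52).

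The same contrast in the libraries labelled DRP1 knockout gave the difference of the ethanol effects. In those libraries Dnm1l, the targeted gene, had 776.0, 949.1, 730.1 and 756.4 normalised reads with ethanol and 666.2, 654.3, 538.6 and 708.7 on the control diet, ranges that overlap those of wild type. Gene totals do not show whether part of the transcript was deleted, so they do not check the label. Knockout-labelled ethanol library 1 also held pancreas transcripts, with 9878 normalised reads summed over the pancreas markers, against at most 14.4 in any other library. Limma called the difference of the ethanol effects for 46 of 13256 genes, or 0.347%, with 19 above 0 and 27 below (knockout-labelled minus wild type). Cyp2a5 was 17440.0 ± 4290.3 normalised reads in wild-type ethanol libraries and 2406 ± 271 in wild-type control libraries, and 9818 ± 698 and 10176 ± 4113 in the knockout-labelled ones (SD, n = 4 each), so its log2 fold change was 2.83 in wild type and 0.04 ± 0.24 SE in the others (difference -2.79 ± 0.33 SE, limma adjusted p = 0.00264). The log2 fold change of Cyp2b10 was 11.67 in wild type and 7.93 ± 0.42 SE in the knockout-labelled mice (difference -3.74 ± 0.59 SE, limma adjusted p = 0.0147). Its control mean was 5.07 in wild type and 42.3 in knockout-labelled libraries, and its ethanol mean 16936 and 10093. Among the genes above, Nqo1, Abcc4, Cbr3, Gsta2, Gstm3, Cdkn1a, Orm3 and Cyp26a1 also had the larger rise in wild type. Their log2 effects in knockout-labelled libraries were 0.25 ± 0.17, 2.25 ± 0.22, -0.62 ± 0.55, 0.67 ± 0.35, 2.02 ± 0.36, 3.39 ± 0.48, 3.20 ± 0.36 and -0.88 ± 0.62 SE in that order. Their control means in the same order were 61.86, 15.04, 3.602, 43.64, 235.9, 15.15, 11.7 and 118.1 normalised reads in wild type. In knockout-labelled libraries these were all higher, at 217.1, 47.42, 337.8, 294.7, 1431, 112.9, 113.7 and 305.2. The wild-type ethanol means were 233.4, 343.7, 106.5, 522.3, 6041, 2308, 801.2 and 1266. The knockout-labelled ethanol means were 256.96, 235.9, 162.8, 443.3, 5039.6, 1298, 1006 and 176.7. Ppara, C6 and Cx3cr1 fell in wild type, with knockout-labelled effects of 0.04 ± 0.22, -0.58 ± 0.23 and -0.44 ± 0.29 SE. Their control means were 1592, 3928 and 14.6 normalised reads in wild type and 768, 3579 and 24.9 in knockout-labelled libraries. In 44 of the 63 lists no member differed by this test, which does not show that the genotypes responded alike.

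The count of 46 depended on single libraries. It was 19, 12 and 215 without wild-type ethanol library 1, 2 or 3, and 18, 22 and 25 without wild-type control library 1, 2 or 4. It was 8, 16 and 9 without knockout-labelled ethanol library 1, 2 or 4 (library 1 holds the pancreas transcripts, and 5 of the 13 genes named for a called difference stayed called without it, Cyp2a5, Abcc4, Nqo1, Cbr3 and Cyp2b10, with the same direction for 13 of 13), and 29, 19 and 28 without knockout-labelled control library 1, 2 or 4. It was 740 with wild-type ethanol libraries 1 and 2 alone and 16 with libraries 3 and 4 alone. At an unadjusted p under 0.05 the difference was seen for 1772 genes.

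**Figure D5:**
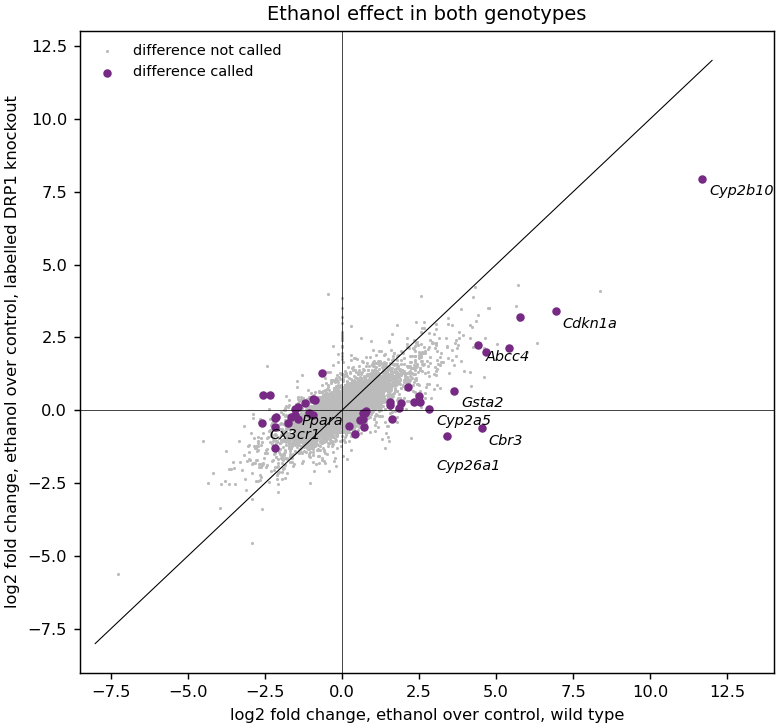
Log2 fold change of ethanol over control in wild-type mice (horizontal axis) and in mice labelled DRP1 knockout (vertical axis), 1 point per gene, with the line of equal change. The 46 genes with a called difference are purple; Cyp2b10 lies at 11.67 and 7.93 and Cyp2a5 at 2.83 and 0.04.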

How the data were processed

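RNA from the livers was sequenced as 75 bp single reads on an Illumina NextSeq 550, per the labels' protocols. HISAT2, HTSeq and edgeR with the GRCm38 build are named in the submitters' processing notes; annotation and strand setting are not stated there. The authors deposited 1 table of 16 libraries, in which each value is a signal: the reads of a gene divided by 1 factor per library. Multiplied back, 100.0% of values were whole within 0.01 reads, so edgeR and DESeq2 could be run on recovered reads as alternatives; this was seen only once the table was at hand.

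Genes with a mean of at least 10 over the 16 libraries were tested on log2(value + 1) by limma (version 3.58.1, R 4.3.3), in 1 fit of the 4 groups with a mean-variance trend, with Benjamini-Hochberg adjustment over 13256 genes and a threshold of 0.05. A fold change on this scale understates the change of low genes. The difference between genotypes is the interaction of that fit. Alternatives used edgeR 4.0.16, DESeq2 1.42.0, other pseudocounts, floors and scalings, pairs of ethanol libraries, and each library left out. The fit was tested on simulated data. Replicates differed by more than counting noise, so none was merged. Of the gene identifiers 27233 matched a symbol and 55 did not.

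Genes named are the 12 largest rises and falls called in every fit that leaves out 1 library, set examples of each list, up to 5 called members of each list, cell markers, and up to 8 genes of the difference. Outside that rule, chosen after their values were seen, stand Cyp2b9, Cyp2b13, Cyp2a4, Hao2, Cux2, Sult1e1, Gclm, Gstz1, Mtf1 and genes named only as members of a count or for a promoter match. The comparison and the lists were chosen with earlier results of these data known. Some listed genes, Hsd3b7 and Cyp2c44 among them, are not analysed here, and some genes that the rule takes are not reported here.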

Additional observations from a re-analysis of the deposited data

Results flagged for a closer look

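In 354 groups of 4 libraries (176 genes and the mitochondrial share, ethanol and control), 30 held 1 library far from the other 3 by Dixon's ratio, which chance alone gives in about 1 of 20 groups. Ethanol library 4 was far above the others for Atf3 (3550 normalised reads), Trib3 (2836), Fgf21 (2497), Jun (2021), Cyp2a4 (1728), Cyp2b9 (6140) and Cyp2b13 (272.2), and below them for Bag3 (565.5). Ethanol library 3 stood apart for Cyp7a1 (3091), Cebpa (4319) and Ifi44 (17.65), all high, and Sgk1 (370.6), low. Ethanol library 2 stood apart for Bcl6 (287.8) and Gsta2 (755), high, and Mdm2 (474.2), low, and ethanol library 1 for Abcc4 (262.9), low.

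Among control libraries, library 2 was high for C3 (115100), Fgb (102300), Cd14 (39.76), Cyp2b9 (56.66) and Psat1 (42.75) and low for Abcc4 (12.92), Cat (27430) and the mitochondrial share (3.513%). Control library 3 was high for Acly (31010), Gpam (14200) and Insig1 (5086), control library 1 for Gstm1 (8393) and Mcm5 (70.01), and control library 4 for Ghr (9745).

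For 13 of the genes named the ethanol effect differed between mice labelled DRP1 knockout and wild type by the limma interaction. The difference in log2 fold change (knockout-labelled minus wild type) was -5.15 for Cbr3, -4.28 for Cyp26a1, -3.74 for Cyp2b10, -3.53 for Cdkn1a, -2.97 for Gsta2, -2.79 for Cyp2a5, -2.66 for Gstm3, -2.57 for Orm3, -2.16 for Abcc4 and -1.65 for Nqo1. It was 1.57 for Ppara, 1.59 for C6 and 2.15 for Cx3cr1.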

How the results depend on the processing

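Over 20 alternatives the number of genes called in wild type stayed within 1.5 times of 5032, except with ethanol libraries 3 and 4 alone, where it was 3240 (1670 higher and 1570 lower, 551 of these at least 2-fold lower). With a floor of 50 on the mean, which tests fewer genes, 446 were at least 2-fold lower. Leaving out 1 library gave 4251 to 5026, edgeR 5013 and DESeq2 5150, of which 4863 and 4889 were shared with limma in direction. TMM factors moved the median gene by 0.0126 (log2) and the share of higher calls to 51.6%, against 49.8%. Of 466 genes taken by the naming rule 359 kept their call under every alternative, and Axin2 turned to -0.74 with ethanol libraries 1 and 2 alone; the cause was not tested. The mitochondrial share differed by 1.1726 to 1.4092 points with 1 library left out, each with an exact permutation p of 0.0571, the smallest that 3 against 4 allows.

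The 46 genes with a called difference between genotypes became 16 with no trend, 30 with edgeR, 265 with DESeq2, 740 and 16 with the 2 pairs of ethanol libraries, and 8 to 215 with 1 library left out; the cause was not tested. Same-numbered ethanol and control libraries correlated at -0.125 to -0.0253 in their deviations, so the numbers were not taken to pair samples. With a replicate block 4911 genes were called in wild type and 24 for the difference.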
